A study of Strongylocentrotus purpuratus with 2 samples.

Results

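Sp-Ac-sc, Sp-Ato, Sp-Ptf1a and Sp-Sim are basic helix-loop-helix (bHLH) transcription factor genes of the purple sea urchin Strongylocentrotus purpuratus, and Sp-Prox1 is a homeobox gene of the Prospero type. The 5 genes were taken by name from the deposited tables of a SoxC knockdown study. Each name led to 1 transcript model, so 5 of 17269 models are described here, all of them with a value. They had been picked with their difference between the libraries already known, so every value below is a description and carries no test.

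RNA was sequenced from whole embryos 30 hours after fertilization, grown at 15 °C, with about 1000 embryos per sample. There was 1 library from embryos injected as fertilized eggs with a morpholino against soxC, an antisense oligonucleotide, and 1 library from embryos injected with glycerol as the control. No strain or other treatment is named, and no control morpholino was part of these samples. The spread between samples of a group is unknown, since each group has 1 library. What targeting soxC did cannot be told apart from what any morpholino does, nor from a difference between the samples in culture, stage or handling. Transcripts of soxC (Sp-SoxC) stood at 38052.2 normalized units in the library labelled SoxC morpholino, against 10632.2 in the glycerol control. Morpholinos block translation or splicing, and the transcript they target can stay or accumulate. The labels are therefore not checked by this gene, and every direction below rests on them.

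Proneural bHLH proteins start the neuronal programme in cells chosen within an ectoderm, and they bind DNA as pairs with a broadly present E protein. Id proteins take up the E protein, and Hes and Hey repressors, which act downstream of Notch, hold the proneural genes in check in neighbouring cells. In Drosophila, achaete-scute genes drive the formation of external sense organs, and atonal drives that of chordotonal organs and the first photoreceptors. In vertebrates, Ptf1a is needed for the exocrine pancreas and for inhibitory neurons of the cerebellum and retina. Single-minded, a bHLH protein with a PAS domain, directs development of the nerve cord midline in Drosophila. Prospero proteins take part in the step from dividing progenitor to differentiating neuron, and in sea urchin embryos prox is also a gene of the blastocoelar cells, a mesodermal immune cell type.

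The values are the authors' normalized signal. In each library they were whole multiples of a fixed step, so read counts could be recovered, 4763995 reads in all for the library labelled SoxC morpholino and 4414503 for the glycerol control. Intervals in parentheses are 95% intervals from those reads. They cover counting error only, because each group has 1 library. Nothing shows that each read is a separate molecule, so they may be too narrow even for counting error. Ratios are of the signal in the library labelled SoxC morpholino to that in the control, and the median log2 ratio was -0.21 over 8819 measured models, those with a mean level of at least 1 CPM (counts per 1e+06 reads). Ratios are therefore given as deposited and also with that median set to 0. Transcript lengths were not used here, so levels are compared between libraries and never between genes.

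Sp-Sim and Sp-Ptf1a had lower levels in the library labelled SoxC morpholino, with ratios to the control whose intervals lay below 1. For Sp-Ato, with a ratio below 1, and for Sp-Ac-sc and Sp-Prox1, with ratios above 1, the deposited values differed by less than counting error. A size rule asked for a mean of at least 1 CPM, a ratio of at least 2-fold and an interval that leaves out a ratio of 1. By this rule Sp-Sim was lower, 4 genes met neither direction and 0 were higher, as deposited and with the median set to 0. Over all 8819 measured models, 4.75% were lower and 0.658% were higher by the same rule, and with the median set to 0 these shares were 2.38% and 1.55%. Because the 5 genes were picked on this contrast, nothing is read from their share against that background.

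**Figure D1:**
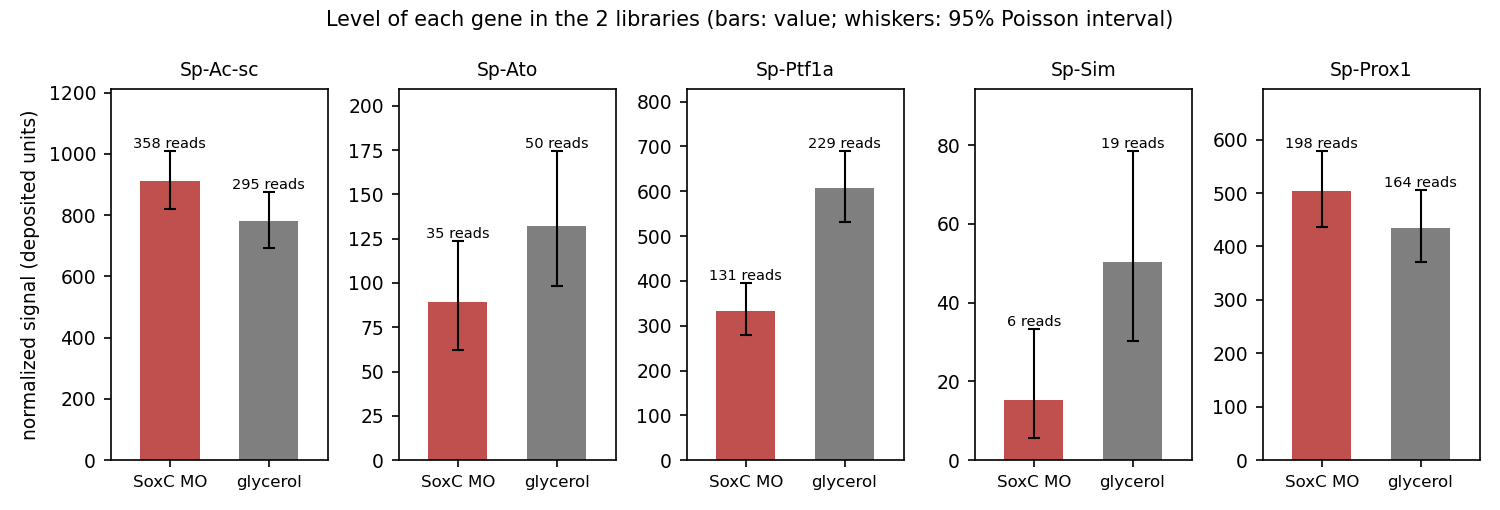
Deposited normalized signal (vertical axis, from 0, a scale of its own in each panel) of the 5 genes in the library labelled SoxC morpholino (red, left) and the glycerol control (grey, right), 1 library each. Whiskers are 95% Poisson intervals from the recovered reads printed above them; the intervals overlap for Sp-Ac-sc, Sp-Ato, Sp-Sim and Sp-Prox1 and are separate for Sp-Ptf1a.

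Sp-Ac-sc (WHL22.128311.0, gene prediction SPU_028148) is named for the achaete-scute class. It had 910.7 normalized units in the library labelled SoxC morpholino (819 to 1010) and 781.0 in the glycerol control (694 to 875), from 358 and 295 reads. The morpholino value was the higher of the 2, and the intervals of the levels overlapped. The ratio was 1.17-fold (0.997 to 1.36), and with the overall median set to 0 it was 1.35-fold (1.15 to 1.58). An interval wholly above 1 was found for 3.99% of measured models as deposited, where that of Sp-Ac-sc includes 1, and for 12.4% with the median set to 0, where it lies above 1. Relative to that median its log2 ratio was 0.43, and 14.3% of measured models had a higher ratio.

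Sp-Ato (WHL22.459901.0) is named for the atonal class, and its model carries the gene predictions SPU_011315 and SPU_017983, which therefore have a single shared value. It had 89.0 normalized units in the library labelled SoxC morpholino (62.0 to 124) and 132.4 in the glycerol control (98.2 to 175), from 35 and 50 reads. The value was lower in the library labelled SoxC morpholino, with overlapping intervals. The ratio was 0.673 (0.424 to 1.06), or 0.777 (0.489 to 1.22) with the median set to 0. At this depth a difference was not detectable beyond counting error, and the interval allows anything between 2.36-fold lower and 1.06-fold higher. Of all measured models, 20.6% had a lower ratio.

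Sp-Ptf1a (WHL22.476207.0, SPU_002677) had 333.2 normalized units in the library labelled SoxC morpholino (279 to 395) and 606.3 in the glycerol control (530 to 690), from 131 and 229 reads. Here the intervals of the 2 levels did not overlap. It was 1.82-fold lower (1.46 to 2.27), and 1.58-fold lower (1.27 to 1.97) with the median set to 0. The fold falls short of 2 under both scalings, so the size rule was not met, while the interval left out 1 under both. An interval wholly below 1 was found for 25.6% of measured models as deposited and for 10.2% with the median set to 0. A lower ratio was found in 10.5% of measured models. Within 2-fold of the level of Sp-Ptf1a lay 1940 models, of which 19 (0.979%) were lower by the size rule. Sp-Ptf1a is not among these. At a threshold of 1.5-fold Sp-Ptf1a would be called lower, as would 9.91% of measured models. That share is over models of all levels, and none was worked out for models near the level of Sp-Ptf1a.

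Sp-Sim (WHL22.424996.0) is named for single-minded, and its model carries the gene predictions SPU_008353 and SPU_013962 with a shared value. It was thinly covered, with 15.3 normalized units in the library labelled SoxC morpholino (5.6 to 33.2) and 50.3 in the glycerol control (30.3 to 78.6), from 6 and 19 reads. The morpholino value was the lower of the 2, although the intervals of the levels just overlap. The gene was 3.3-fold lower (1.27 to 10.1), and 2.85-fold lower (1.1 to 8.73) with the median set to 0. Only 159 of the 8819 measured models, 1.8%, had a lower log2 ratio. Models with few reads met the rule more often: of 2602 models within 2-fold of the level of Sp-Sim, 239 (9.19%) were lower. The mean level of Sp-Sim was 2.78 CPM, and with a floor of 5 CPM it is not counted.

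Sp-Prox1 (WHL22.531966.1, SPU_015984) had 503.7 normalized units in the library labelled SoxC morpholino (436 to 579) and 434.2 in the glycerol control (370 to 506), from 198 and 164 reads. As for Sp-Ac-sc, the value was somewhat higher in the library labelled SoxC morpholino and the intervals overlapped. The ratio was 1.16-fold (0.938 to 1.44), or 1.34-fold (1.08 to 1.66) with the median set to 0. Relative to that median the log2 ratio was 0.42, and 14.8% of measured models had a higher ratio.

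**Figure D2:**
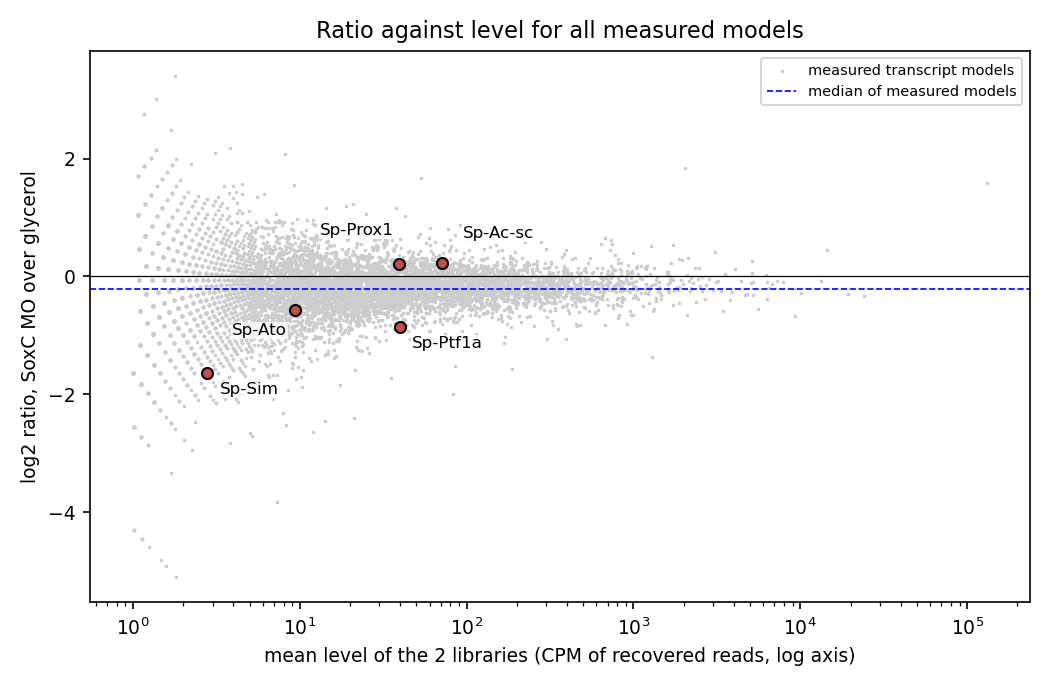
Log2 ratio of SoxC morpholino to glycerol control signal (vertical axis, with a pseudocount of 0.5 reads) against the mean level of the 2 libraries in CPM (horizontal, log axis) for 8819 measured models (grey), with the 5 genes in red. Sp-Sim lies at 2.78 CPM, where few reads spread the ratios widely, Sp-Ptf1a at the lower edge of the models near 39.7 CPM, and Sp-Ac-sc and Sp-Prox1 above the median of -0.21 (dashed).

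The 5 genes were also set against each other, by the change between the libraries in the read ratio of a pair of genes, which depends neither on the scaling between libraries nor on transcript length. The read ratio within a library does depend on length and says nothing of which gene is the more abundant. There were 10 pairs, and the interval of the change in the pair's ratio left out 1 in 6 of them. All 10 are built from the same 5 genes, so the 6 are not separate results. No share over pairs of other models was worked out to set beside this count. These 6 are the pairs of Sp-Ac-sc or Sp-Prox1 with Sp-Ato, Sp-Ptf1a or Sp-Sim. The library labelled SoxC morpholino held 2.73 reads of Sp-Ac-sc for each read of Sp-Ptf1a, against 1.29 in the glycerol control, a change of 2.12-fold (1.62 to 2.79). For Sp-Prox1 over Sp-Ptf1a the read ratio was 1.51 in the library labelled SoxC morpholino and 0.716 in the glycerol control, a change of 2.11-fold (1.55 to 2.88).

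For Sp-Ato the change against the same genes was less certain. Sp-Ac-sc over Sp-Ato changed by 1.73-fold (1.07 to 2.83) and Sp-Prox1 over Sp-Ato by 1.72-fold (1.04 to 2.88), with both lower bounds near 1. Sp-Ac-sc over Sp-Prox1 stayed at 1.81 reads in the library labelled SoxC morpholino and 1.8 in the glycerol control, a change of 1.01-fold (0.77 to 1.31). For the pairs among Sp-Ato, Sp-Ptf1a and Sp-Sim the intervals all include 1 and are wide, as for Sp-Ptf1a over Sp-Sim at 1.81-fold (0.673 to 5.68). These genes therefore cannot be ranked at this depth. Since the genes were picked with their ratios known, the split into genes with ratios above and below 1 describes these libraries and is not a test. For Sp-Ato, Sp-Ac-sc and Sp-Prox1 the deposited interval of the gene's own ratio includes 1.

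**Figure D3:**
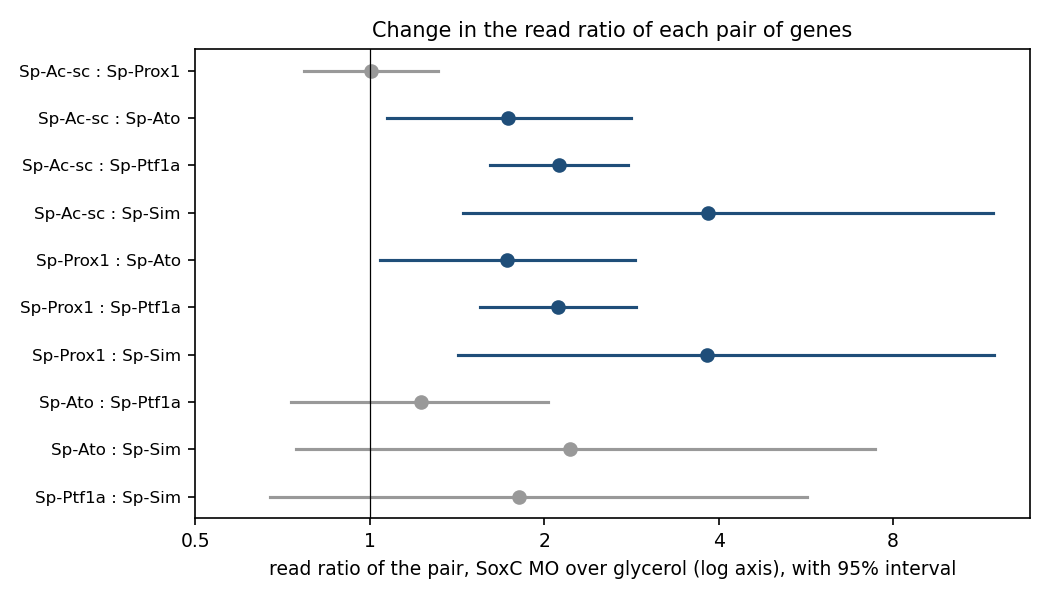
Change in the read ratio of each of the 10 pairs of genes, SoxC morpholino to glycerol control (horizontal, log axis; points are the estimates, lines their exact conditional 95% intervals). The 6 pairs in blue, which join Sp-Ac-sc or Sp-Prox1 with Sp-Ato, Sp-Ptf1a or Sp-Sim, have intervals above 1; the 4 in grey include 1.

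For the bHLH family, a list of 58 entries by class, the bHLH genes described here included, was searched by name. Of these, 19 were measured, 6 lay below the floor of 1 CPM, 15 were blank in both tables and 18 had no matching name. A blank is a missing value and not a 0. Of the 19 measured entries, 1 was higher, 2 were lower and 16 met neither, beside 0.658% higher and 4.75% lower over all measured models. The 2 lower entries were Sp-Sim and the Notch target type repressor Sp-Hey, which had 0 reads in the library labelled SoxC morpholino and 13 in the glycerol control. With a floor of 3 reads in place of the 0, that is 4.51-fold lower, while the counting interval allows as little as 3.17-fold. The list median was -0.41 on the log2 scale, against -0.21 for all measured models, and 12 of the 19 lay below that overall median. Sp-Sim and the other bHLH genes described here were picked on this contrast. Without them, 1 of 15 measured entries was higher, 1 (Sp-Hey) was lower and 13 met neither, and 9 of the 15 lay below the overall median.

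Among the achaete-scute and atonal superfamily, the measured gene besides Sp-Ac-sc and Sp-Ato was Sp-Mist, of the type that drives secretory cell maturation in mammals. It had 43.2 normalized units in the library labelled SoxC morpholino and 15.9 in the glycerol control, from 17 and 6 reads. It was the 1 higher entry of the family, at 2.72-fold (1.02 to 8.43), and did not meet the rule when scaled by total reads. Values were blank for Sp-Ngn, the neurogenin model, and Sp-neuroD1, so neither of these proneural genes can be set beside Sp-Ac-sc and Sp-Ato. In the class of Ptf1a, Scl and MyoD, the blood and endothelial type regulator Sp-Scl was 1.57-fold higher (1.32 to 1.88), from 342 and 209 reads, and did not reach 2-fold. Sp-MyoD had 5 reads in the library labelled SoxC morpholino and 8 in the glycerol control, too few to give a direction.

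In the PAS class, Sp-Ahr, the aryl hydrocarbon receptor gene, had a ratio of 0.754 (0.601 to 0.944), and Sp-Ahrl one of 0.736 (0.463 to 1.16). Both lay below the median of all models and neither met the rule. Sp-Clock had 2 and 5 reads, and Sp-Bmal 2 and 0, in the library labelled SoxC morpholino and the glycerol control, both below the floor. Blank models include Sp-Arnt and Sp-Arnt-like, named for the partner with which Single-minded binds DNA.

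**Figure D4:**
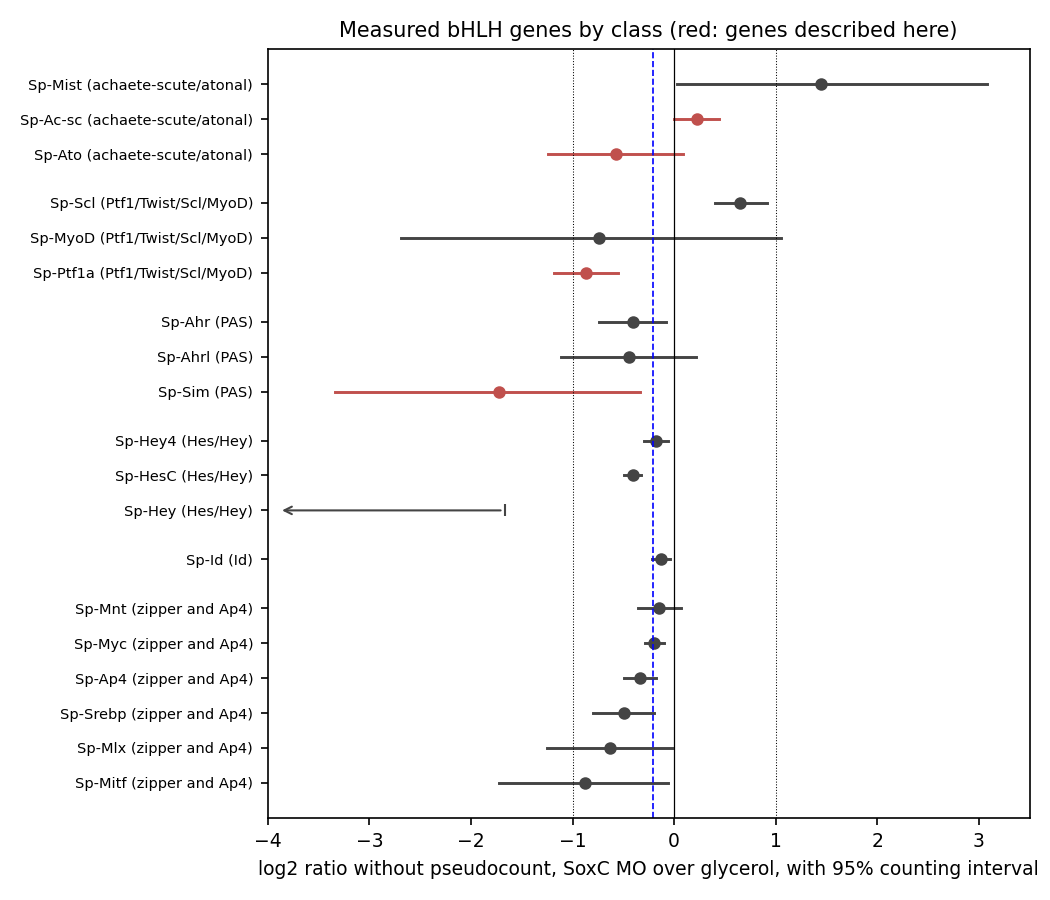
Log2 ratio of SoxC morpholino to glycerol control signal, without pseudocount (horizontal axis), with 95% counting intervals (lines) for the 19 measured bHLH entries by class; the 4 bHLH genes described here are red. Dotted lines mark 2-fold and the dashed line the median of all measured models (-0.21); the arrow for Sp-Hey starts at its interval bound of 3.17-fold lower because it had 0 reads in the library labelled SoxC morpholino.

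Genes whose products pair with, block or regulate proneural bHLH proteins were looked up by name after the tables had been read. Of 11 entries, 7 were measured, 1 (Sp-Hey) was lower, 0 were higher and 6 met neither, beside 4.75% lower and 0.658% higher over all measured models. Sp-Id, the gene of the inhibitor that takes up E proteins, had a ratio of 0.913 (0.859 to 0.97) and lay 0.08 above the median of all models on the log2 scale. Sp-HesC, a repressor gene, had a ratio of 0.754 (0.711 to 0.8), and Sp-Hey4 one of 0.883 (0.812 to 0.961). Relative to the median of all models they lay at -0.20 and 0.03, so the direction of Sp-Hey4 turns with that scaling. Sp-delta had a ratio of 0.628 (0.554 to 0.71), the lowest of the list after Sp-Hey, and Sp-Notch one of 0.827 (0.778 to 0.879). These 2 lay at -0.46 and -0.07 relative to the median of all models. Suppressor of hairless, which relays the Notch signal and is part of the Ptf1a complex in mammals, had 45 reads in the library labelled SoxC morpholino and 54 in the glycerol control, a ratio of 0.801 (0.527 to 1.21). Its model also carries the name Sp-Lct, so this value is shared. The E protein model Sp-E12 and the corepressor model SP-Groucho were blank.

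In a list of 31 neural regulators, which includes the 5 genes, 25 were measured, 8 were lower, 1 (Sp-SoxC) was higher and 16 met neither. Over all measured models 4.75% were lower and 0.658% higher, or 2.38% and 1.55% with the median set to 0. Leaving out the 5 genes, 7 of 20 measured entries were lower. Of the entries with reads in both libraries, the zinc finger gene Sp-z167 had the lowest ratio, with 4 reads in the library labelled SoxC morpholino and 61 in the glycerol control, at 0.063 (0.0166 to 0.17). The other lower entries were Sp-Otp, Sp-Brn1-2-4, Sp-Hb9, Sp-IA-1, Sp-lhx2 and Sp-Hey, whose ratios ran up to 0.413 for Sp-lhx2. The list was drawn up with many of these values known, so its count is no independent evidence of a direction. The list median was -0.45 on the log2 scale, against -0.21 for all measured models.

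Since whole embryos were sequenced, fewer cells of a type and less RNA per cell cannot be told apart. Beside Sp-Prox1, the other measured blastocoelar cell markers were Sp-Scl, Sp-Ese and Sp-GataC, whose summed signal was 1984.2 in the library labelled SoxC morpholino and 1509.0 in the glycerol control. All 4, Sp-Prox1 included, lay above the median of all models on the log2 scale, Sp-GataC by 0.21, Sp-Ese by 0.61 and Sp-Scl by 0.86. By construction, as many measured models lie above that median as below it, and Sp-Prox1 was picked on this contrast. As deposited, the ratio of Sp-GataC was 0.999 (0.808 to 1.23). The size rule was met by 0 of the 4, beside 4.75% lower and 0.658% higher over all measured models. Of the pigment cell markers, Sp-gcm was at 0.52 and Sp-Ployketide_synthase_like at 0.65 relative to the median of all models. The summed signal over these 2 was 206378.7 in the library labelled SoxC morpholino and 151971.6 in the glycerol control. Sp-Ployketide_synthase_like alone gave 199101.0 and 146126.0 of these sums. None of the markers named here had 0 reads. The part of these cells in the value of Sp-Prox1 was not tested.

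Of 10 markers of differentiated neurons, 8 were measured, and 2 were lower, 0 higher and 6 neither. For this and the marker lists that follow, the shares over all measured models are again 4.75% lower and 0.658% higher. They ranged from -1.15 for Sp-VAChT to 0.39 for Sp-Snap25 relative to the median of all models, and their summed signal was 3823.5 in the library labelled SoxC morpholino and 4723.0 in the glycerol control. The other lower marker was Sp-GAD, the gene of the enzyme that makes the transmitter GABA, at 2.14-fold (1.65 to 2.79), a call that is lost with the median set to 0. Of 6 measured gut markers, Sp-Xlox was lower at 2.02-fold (1.3 to 3.19) and Sp-Mist was higher, with a summed signal of 17872.4 in the library labelled SoxC morpholino and 20266.1 in the glycerol control. Both calls are close: that of Sp-Xlox is lost with the median set to 0, and that of Sp-Mist when scaled by total reads. The skeletogenic markers had 3 measured entries, from -0.20 for Sp-SM30-B to 0.67 for SpSM29, with 0 called, and summed to 13133.5 in the library labelled SoxC morpholino and 13475.6 in the glycerol control. Of 3 measured ciliary band markers Sp-Otx was lower, at 2.6-fold (1.21 to 6.07), and Sp-Tektin-3 was the highest, at 0.17. The call of Sp-Otx rests on few reads, 10 in the library labelled SoxC morpholino and 25 in the glycerol control. The 3 markers summed to 9663.7 in the library labelled SoxC morpholino and 10153.0 in the glycerol control. Whether neurons, gut or band cells have a part in the values of Sp-Ptf1a, Sp-Sim and Sp-Ato was not tested.

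Models with levels like those of a gene in both libraries were named where the gene had at least 50 reads, by the distance between log2 CPM values, which rests on 2 libraries only. The nearest to Sp-Ac-sc were Sp-Brca1l and Sp-DLC3, at distances of 0.008 and 0.028. For Sp-Prox1 they were Sp-Adcy10 and Sp-Fcho2, at 0.019 and 0.039, and for Sp-Ato Sp-Csrp2bp and Sp-Hs2stL, both at 0.040. Within a distance of 0.1 lay 10 models for Sp-Ac-sc, 18 for Sp-Prox1 and 31 for Sp-Ato. Sp-Ptf1a had 2 models within that distance, and its nearest with a descriptive name, Sp-Psgp and Sp-Gluld1, lay at 0.109 and 0.130.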

How the data were processed

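RNA of whole embryos was sequenced in 1 library per group. The submitters' processing notes name CASAVA 1.8 and Bowtie; which tool counted reads, whether strand was used, how values were normalized and which genome build was mapped to is not stated in the labels. The authors deposited 1 normalized signal per transcript model, in 24565 rows for 17269 models, of which 12943 have a value. Rows of the same model were used once. The headers of both value columns give identical index and lane text, so they do not tell the libraries apart beyond the group name, nor show whether a lane was shared. The signal divided by its step (2.54 in the library labelled SoxC morpholino, 2.65 in the glycerol control) was whole within 0.1 for 99.992% and 99.977% of models, and the rounded values were taken as reads.

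Ratios kept the deposited scaling. Log2 ratios used a pseudocount of 0.5 reads, which understates changes of low models; folds used none. Ratio intervals are exact Clopper-Pearson intervals, level intervals are Poisson intervals and pair intervals are exact conditional intervals. The size rule was also run on simulated reads with counting error only, which cannot show how it behaves where samples of a group differ. Python 3.11.15, scipy 1.17.1, and edgeR 4.0.16 in R 4.3.3 (scaling factors only) were used.

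The members, the lists and the naming rule were chosen with earlier results of these data known, and some list entries were matched to names after the tables were read. The naming rule took each member, the measured achaete-scute, atonal and PAS class genes, soxC, the entries of other lists that met the size rule with the highest and lowest of each list, and the 2 models nearest in level. Names outside it, in the pairing and regulator list and among the markers and the Ptf1a class, were chosen after their values were seen. Of several models with a name, the one with most reads stood for it. Further pigment cell markers are not reported here. None of the sequences of these genes were used here.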

Additional observations from a re-analysis of the deposited data

How the results depend on the processing

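All 35 log2 ratios of the 5 genes under other scalings and pseudocounts stayed within the gene's counting interval, which was held at the deposited scaling. A scaling shifts all genes alike, here by -0.05 to 0.22 on the log2 scale. For the scalings this shows only that the shift is small against the interval. The log2 ratios ran from 0.17 to 0.44 for Sp-Ac-sc, -0.62 to -0.35 for Sp-Ato, -0.91 to -0.65 for Sp-Ptf1a, -1.70 to -1.43 for Sp-Sim and 0.16 to 0.43 for Sp-Prox1. Whether an interval includes a ratio of 1 did depend on the scaling for Sp-Ac-sc and Sp-Prox1. As deposited their ratio intervals included 1 (0.997 to 1.36 and 0.938 to 1.44). With the median set to 0 they lay above 1 (1.15 to 1.58 and 1.08 to 1.66). Sp-Sim met the size rule under every alternative run except the floor of 5 CPM, which leaves it out by construction. Sp-Ptf1a met it at 1.5-fold only. Over all measured models, 58 were higher and 419 lower. Under other scalings, 129 were higher and 221 lower by the median of ratios, 138 and 209 by the upper quartile, 138 and 208 by TMM, and 118 and 246 by total reads less the most abundant model, a scaling added after seeing the data. With a 5 CPM floor the calls were 14 higher and 157 lower. Moving the threshold to 1.5-fold called 142 higher and 874 lower, moving it to 3-fold 27 higher and 170 lower, and dropping the interval 186 higher and 760 lower. A Benjamini-Hochberg adjusted exact binomial test of the reads, used instead of the interval, called 28 higher and 249 lower. Such a test compares the libraries rather than the treatments. In the bHLH list, against 1 higher and 2 lower, total reads left 0 higher, and a floor of 5 CPM left 0 higher and 0 lower. At 1.5-fold this list had 2 higher and 5 lower, and 3-fold and the binomial test each left 0 higher. The counts of the neural regulator list (1 higher, 8 lower) stayed within 1.5 times under each of these alternatives. The threshold, interval and binomial alternatives of both lists were added after seeing the data. The most abundant model took 19.6% of reads in the library labelled SoxC morpholino and 6.75% in the glycerol control. Depth limits Sp-Sim and Sp-Ato most, at 25 and 85 reads over both libraries. No paired analysis was possible because there is no second library in a group.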
